A study of Mus musculus with 8 samples.

Results

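The 40 genes described here encode subunits and initiation factors of RNA polymerase I and proteins that process ribosomal RNA and build the ribosomal subunits. They form a list fixed by gene symbol: 5 polymerase I subunits, 6 initiation factors, 4 proteins of the box C/D and U3 small nucleolar particles, 5 abundant nucleolar proteins, 7 proteins of the small subunit processome, 5 proteins of 40S maturation and 8 of 60S assembly. Accessible chromatin at these genes was measured as ATAC-seq peaks, all 201 bp wide. A peak belonged to a gene if its centre lay inside the gene's span in GRCm38, or within 50 kb of it with that gene's end the nearest end of any protein-coding gene. By this rule 242 of the 134407 peaks of the study belonged to the 40 genes. Of these, 50 had their centre within 1 kb of either end of the gene and are called gene-end peaks, and the other 192 are called distal. Polr1c, which encodes a subunit shared by polymerases I and III, had no peak by the rule, and the other 39 genes had at least 1. Of the 242 peaks, 138 lay inside the gene and 104 outside, 36 were also assigned to a gene off the list, and 11 were nearer to an end of another gene. Whether a peak inside a gene was exonic or intronic was not analysed here.

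Both groups were E14 cells, an established line of wild-type mouse embryonic stem cells, kept on gelatin in medium with serum and LIF. The 4 control libraries came from cells without inhibitor. The 4 paused libraries came from cells given 200 nM of INK128, which blocks the mTOR kinase, for 24 h. Each library was made from 50000 live cells, and all cells were of this 1 line. The labels number the replicates but name no separate cultures, so the p-values measure the spread between these libraries, which may be technical.

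Ribosome production starts in the nucleolus, where RNA polymerase I copies the ribosomal DNA repeats into a long precursor. UBF and the SL1 complex mark the promoter, and RRN3 brings the polymerase to it. The precursor is then folded, methylated and cut by small nucleolar particles and by the small subunit processome before the 40S and 60S particles are exported. Ribosome production is one of the main processes that mTOR signalling drives in growing cells, and embryonic stem cells have large, active nucleoli. The genes studied here are themselves copied by RNA polymerase II, so their peaks show the chromatin of protein-coding genes and not that of the ribosomal DNA.

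The values are those deposited by the authors, the reads of a peak divided by 1 factor per library. From 4434037 to 21161767 reads per library fell in peaks. One read was worth between 0.346 and 1.69, and control replicate 1 was the deepest library. The labelled cell type was checked at its marker genes: the peaks nearest to Sox2 and Nanog were 67 and 116 bp from the gene, that nearest to Pou5f1 was 1989 bp away, and 6 of 7 stem cell markers had a gene-end peak. Their summed values were 963 to 1053 in control and 1171 to 1324 in paused libraries. Of the markers of other cells, 5 of 6 fibroblast genes (405 to 499.6 in control and 498 to 544 in paused libraries), 2 of 5 primitive endoderm genes and 2 of 3 neural genes also had a gene-end peak. Of the fibroblast genes, Col1a1, Col1a2, Thy1, Twist1 and Twist2 had such peaks, and only Col3a1 did not. The part of other cells in the results below was not tested. The deposited scaling put the median change of all tested peaks at 0.10 on the log2 scale, paused minus control, against -0.01 after TMM rescaling (edgeR's trimmed mean of M values). The medians over all genes or peaks are therefore given beside those of the list.

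Promoter windows of 300 bases, from 250 before to 50 after the start site, were listed for 35 of the 40 genes, in 45 windows (RefSeq, GRCm38.p6). Bop1, Fbl, Npm1, Rrp12 and Rrs1 had no entry. The E-box CACGTG, a palindrome that Myc and other factors bind, stood in 8 of the 45 windows (17.8%), against 7.84% of all 21263 windows and 10.9% of those with a tested peak. The sequence CCGGAAG, which ETS factors bind, was in 14 windows on either strand (31.1%, against 11.6% of all windows and 19.5% of those with a tested peak). The palindromes bound by NRF1 and by ZBTB33 were in 0 windows of the list, against 1.33% and 0.673% of all windows and 2.24% and 1.21% of those with a tested peak. TATAAA, searched on both strands, was in 1 window, that of Pes1 (2.22%, against 12.6% of all windows and 5.49% of those with a tested peak). The windows of the list had a median GC content of 59.0% and 19 CpG sites, against 56.3% and 13 over all windows and 61.7% and 21 over those with a tested peak, so the list lay above the first and below the second. The stretches around each E-box are shown because they let the E-box be placed against the accessible peak. They read 5′ to 3′ along the gene, with the E-box in capitals.
Nop2, chr6:125131811-125131840, plus strand: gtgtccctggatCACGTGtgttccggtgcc
Utp4, chr8:106893643-106893672, plus strand: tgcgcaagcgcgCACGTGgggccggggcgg
Ltv1, chr10:13193092-13193121, minus strand: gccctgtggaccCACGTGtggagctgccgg
Utp20, chr10:88826765-88826789, minus strand: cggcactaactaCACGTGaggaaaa
Pes1, chr11:3963965-3963994, plus strand: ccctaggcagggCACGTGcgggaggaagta
Tsr1, chr11:74898092-74898121, plus strand: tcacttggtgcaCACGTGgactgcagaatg
Rrn3, chr16:13780472-13780501, plus strand: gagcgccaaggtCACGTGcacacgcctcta
Rrn3, chr16:13780639-13780668, plus strand: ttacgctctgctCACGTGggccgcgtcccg
Wdr43, chr17:71616220-71616249, plus strand: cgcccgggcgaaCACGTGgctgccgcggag

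In Nop2 the first base of the E-box lay 60 bases before the start site, and in Utp4, Utp20, Ltv1 and Wdr43 it lay 15, 37, 28 and 17 bases after it. Each of these 5 lay inside a gene-end peak of its gene. Rrn3 held 2 E-boxes, 215 and 48 bases before the start site, and the nearer one lay inside its peak. The E-boxes of Pes1, 2 bases after the start site, and of Tsr1, 24 bases after it, lay outside the peaks of their genes. The 7 gene-end peaks over a window with an E-box had a median log2 change of 0.15 (0.02 to 0.42), and the 18 over a window without one 0.19 (0.07 to 0.31). With CCGGAAG the median was 0.18 over 10 peaks, and without it 0.17 over 15. The ranges overlapped for both motifs, and no test was made of these small sets.

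The whole windows are shown for Pes1 and Polr1b, whose peaks at the start were the ones called in the test described next, and for Ltv1, whose peak changed least of all start peaks overlapping a window. This choice was made after the values were seen. Capitals mark the E-box, the ETS sequence on either strand and the TATA sequence given above.
Pes1, chr11:3963725-3964024, plus strand: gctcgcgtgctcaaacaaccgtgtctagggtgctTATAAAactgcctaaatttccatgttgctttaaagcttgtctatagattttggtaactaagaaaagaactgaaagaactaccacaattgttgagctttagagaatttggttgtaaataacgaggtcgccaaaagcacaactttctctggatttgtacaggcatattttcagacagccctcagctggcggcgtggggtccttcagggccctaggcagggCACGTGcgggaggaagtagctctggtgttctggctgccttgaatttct
Polr1b, chr2:129100746-129101045, plus strand: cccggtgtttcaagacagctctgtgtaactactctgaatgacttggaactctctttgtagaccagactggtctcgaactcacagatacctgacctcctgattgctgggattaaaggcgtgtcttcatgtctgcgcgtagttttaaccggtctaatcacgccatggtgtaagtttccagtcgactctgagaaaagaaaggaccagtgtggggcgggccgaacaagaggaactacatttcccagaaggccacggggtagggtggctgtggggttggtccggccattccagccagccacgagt
Ltv1, chr10:13193088-13193387, minus strand: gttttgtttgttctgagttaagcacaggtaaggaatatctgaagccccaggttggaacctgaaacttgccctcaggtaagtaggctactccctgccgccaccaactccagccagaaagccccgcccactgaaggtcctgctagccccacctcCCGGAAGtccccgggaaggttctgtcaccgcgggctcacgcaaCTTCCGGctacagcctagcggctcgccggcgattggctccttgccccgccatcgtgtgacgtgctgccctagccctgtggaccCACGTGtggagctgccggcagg

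Most of these genes had an accessible peak at an end in both groups, and few of these peaks passed the test. Gene-end peaks were present at 35 of the 40 genes (87.5%), against 63.4% of all 21887 protein-coding genes. The strongest of them in each gene had a median deposited value of 228 (10.4 to 424). Over all 50 gene-end peaks the median was 177, against 133 for all gene-end peaks of the table, but the list spread wider: 31 of the 50 were in the strongest of 4 classes of peak strength (62.0%, against 68.1% of all gene-end peaks), and 10 of the 50 in the weakest, which held 10.6% of all. Between control and paused cells 2 of the 50 gene-end peaks rose, those of Pes1 and Polr1b, and 0 fell (limma-trend on log2(value + 1), adjusted p under 0.05 over all 127402 peaks tested). That is 4.0% of the list, against a background of 11.7% of all gene-end peaks called in either direction, 10.4% higher and 1.25% lower. At an unadjusted p under 0.05 there were 12 higher and 3 lower (30.0%, against 31.6% of all gene-end peaks). By edgeR with the deposited factors 2 were higher and 1 lower (6.0%, against 14.9%), and by DESeq2 0 were called, against 1.89%. The median log2 change of the 50 peaks was 0.15, against 0.17 for all gene-end peaks, and it was 0.09 without control replicate 1, -0.01 after scaling to total reads in peaks and -0.05 after the loess correction on peak strength, which removes the trend of each library's values with the strength of the peak. The groups did not overlap at 11 of the 50 peaks (22.0%), against 16.6% of all gene-end peaks.

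**Figure D1:**
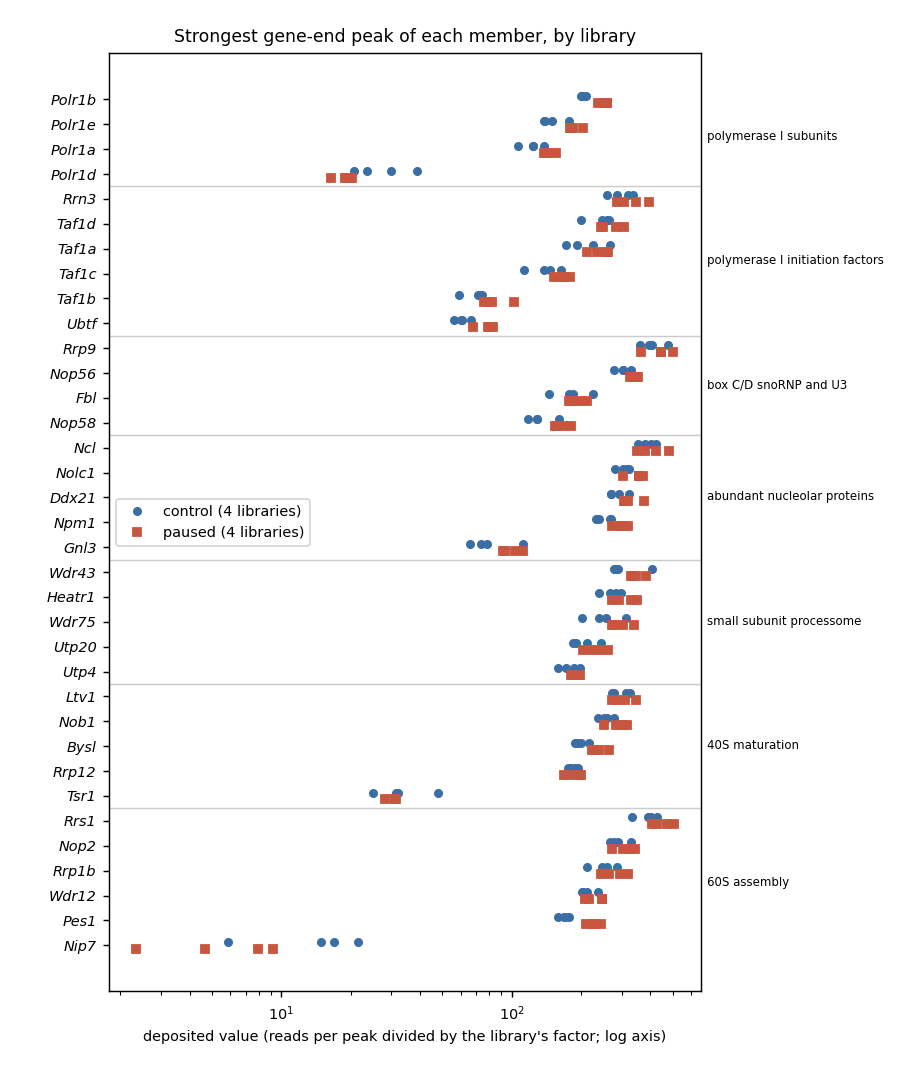
Deposited value (horizontal log axis) of the strongest gene-end peak of each of 35 genes, by role, with 1 circle per control library and 1 square per paused library. Most genes lie between 100 and 500 with both groups close together, and Nip7, Polr1d and Tsr1 are weak. The groups do not overlap in 9 of the 35 genes, against 16.6% of all gene-end peaks. These are Pes1, Polr1b, Npm1, Bysl, Polr1e, Polr1a, Taf1b, Ubtf and, lower in paused cells, Polr1d. Only the peaks of Pes1 and Polr1b were called.

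Among the polymerase I subunits, the groups did not overlap at the start of any of the 3 genes with a start peak, and 1 peak was called. Over all gene-end peaks the groups were apart at 16.6%, and 11.7% were called. Polr1b encodes the second-largest subunit, which with Polr1a forms the active centre. Its peak at the start site, chr2:129100889-129101089, had values of 203, 199, 210.0 and 201 in control replicates 1 to 4 and 238, 254, 259 and 259 in paused replicates 1 to 4. The 4 paused libraries all lay above the 4 control libraries, and the log2 change was 0.31 (SE 0.11, n = 4 and 4, limma-trend adjusted p = 0.0452). The call was kept without paused replicate 1 and lost without control replicate 1, 2, 3 or 4 or paused replicate 2, 3 or 4 (adjusted p 0.0685 to 0.115). It was also lost after TMM rescaling (0.20, adjusted p = 0.214), scaling to total reads (0.15), the loess correction (0.10) and in DESeq2 (0.20). Polr1a encodes the largest subunit. Its start peak had values of 124, 106, 124 and 138 in control replicates 1 to 4 and 138, 140.4, 155 and 142 in paused replicates 1 to 4, and Polr1e, a subunit found in polymerase I alone, had 177, 139, 149 and 139.6 in control replicates 1 to 4 and 185, 181, 178 and 205 in paused replicates 1 to 4. The highest control library stayed just below the lowest paused library in both, and the changes of 0.23 (SE 0.12, n = 4 and 4, limma-trend adjusted p = 0.211) and 0.31 (SE 0.12, n = 4 and 4, limma-trend adjusted p = 0.0674) did not pass. Polr1d, whose protein is shared with polymerase III, had only a weak gene-end peak 900 bp inside its far end, with values of 20.7, 29.9, 39.0 and 23.5 in control replicates 1 to 4 and 19.6, 18.9, 20.2 and 16.4 in paused replicates 1 to 4. All 4 paused libraries were below the controls there, and the change of -0.53 (SE 0.24, n = 4 and 4, limma-trend adjusted p = 0.142) did not pass.

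Of the initiation factors, none had a called gene-end peak. Rrn3, whose protein carries the polymerase to the promoter and is controlled by mTOR signalling, had start values of 258, 338, 320.0 and 287 in control replicates 1 to 4 and 287, 308, 394 and 347 in paused replicates 1 to 4. The groups overlapped, and the change was 0.15 (SE 0.11, n = 4 and 4, limma-trend adjusted p = 0.4). Taf1a, Taf1b, Taf1c and Taf1d encode subunits of SL1, the complex that selects the ribosomal DNA promoter. Their start peaks had changes of 0.18, 0.29, 0.26 and 0.16, none of which passed, and only those of Taf1b did not overlap: 71.2, 74.0, 72.8 and 58.8 in control replicates 1 to 4 and 103, 78.9, 76.0 and 82.0 in paused replicates 1 to 4. Ubtf encodes UBF, which binds along the active repeats. Its strongest gene-end peak stood 260 bp beyond the far end of the gene, with 56.0, 66.9, 61.0 and 60.2 in control replicates 1 to 4 and 79.6, 67.8, 79.1 and 83.2 in paused replicates 1 to 4. The groups were apart there, by little, with a change of 0.34 (SE 0.15, n = 4 and 4, limma-trend adjusted p = 0.118).

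The box C/D genes gave strong peaks with small differences. Rrp9, whose protein binds the U3 small nucleolar RNA, had the strongest gene-end peak of the list, at chr9:106477115-106477315, with 362, 405, 476 and 395 in control replicates 1 to 4 and 366, 445, 501 and 443 in paused replicates 1 to 4. Libraries of both groups were mixed in order, and the change was 0.10 (SE 0.11, n = 4 and 4, limma-trend adjusted p = 0.586). Nop58 and Nop56 encode the paired core proteins of the particle, and Fbl the methyltransferase within it. The peak of Nop58 had 129, 118, 129 and 160.2 in control replicates 1 to 4 and 157, 181, 154 and 166 in paused replicates 1 to 4, with a change of 0.30 (SE 0.12, n = 4 and 4, limma-trend adjusted p = 0.0937). Only control replicate 4 reached the paused range. Nop56 and Fbl changed by 0.16 and 0.09, which did not pass, and the value of Fbl fell below 0 after TMM rescaling (-0.02), after scaling to total reads, after the loess correction and without control replicate 4.

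Of the abundant nucleolar proteins, Ncl (nucleolin) had values of 352, 379.8, 422 and 401 in control replicates 1 to 4 and 351, 424, 481 and 379.6 in paused replicates 1 to 4 and a change of 0.066 (SE 0.11, n = 4 and 4, limma-trend adjusted p = 0.725). Its groups overlapped over most of their range, and the value was -0.02 without paused replicate 3. Npm1 (nucleophosmin) had a peak 907 bp inside the gene with 233, 269, 240.4 and 266 in control replicates 1 to 4 and 299, 320.2, 301 and 272 in paused replicates 1 to 4. Its 4 paused libraries were above its 4 controls, and the change of 0.24 (SE 0.11, n = 4 and 4, limma-trend adjusted p = 0.122) did not pass. Nolc1, Ddx21 and Gnl3, which encode a snoRNP chaperone, an RNA helicase and nucleostemin, had changes of 0.18, 0.18 and 0.30, with overlapping groups and no call.

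In the small subunit processome, whose proteins fold the first part of the precursor, the start peaks of Wdr43, Heatr1, Wdr75, Utp20 and Utp4 changed by 0.17, 0.19, 0.25, 0.15 and 0.08, and none was called. Wdr43 had 278, 408, 281 and 289 in control replicates 1 to 4 and 382, 329.6, 346 and 336 in paused replicates 1 to 4. Control replicate 2 was the highest of all 8 libraries there, and the other 3 controls were below every paused library. A weak peak near the far end of Heatr1 had the largest change above 0 of any gene-end peak of the list. The change was 1.12 (SE 0.41, n = 4 and 4, limma-trend adjusted p = 0.0609). The values were 13.1, 5.97, 1.69 and 13.2 in control replicates 1 to 4. In paused replicates 1 to 4 they were 13.8, 20.5, 14 and 16.4. The peak held between 1 and 38 reads per library, and the lowest paused library was just above the highest control.

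The 40S maturation genes included the least changed start peaks. Ltv1, whose product leaves the particle late in its assembly, had 278, 314, 327 and 273 in control replicates 1 to 4 and 286, 273, 346 and 309 in paused replicates 1 to 4. Both groups spread over the same range, and the change was 0.024 (SE 0.11, n = 4 and 4, limma-trend adjusted p = 0.908), with a sign that turned without control replicate 1, control replicate 4 or paused replicate 3 (-0.04). Rrp12, needed for export, had a peak at 1 of its ends with 181, 189, 195 and 175 in control replicates 1 to 4 and 181, 197, 169 and 200.3 in paused replicates 1 to 4 and a change of 0.015 (SE 0.11, n = 4 and 4, limma-trend adjusted p = 0.95). Bysl (bystin) had 200.2, 189, 217 and 194 in control replicates 1 to 4 and 223, 263, 239 and 232 in paused replicates 1 to 4. Its groups did not overlap, and its change of 0.26 (SE 0.11, n = 4 and 4, limma-trend adjusted p = 0.11) did not pass. Nob1, which encodes the nuclease that trims the small subunit RNA, changed by 0.17 without a call. Tsr1 had no peak at its start, the nearest lying 1992 bp away, and its weak far-end peak had 31.5, 47.8, 32.2 and 25.0 in control replicates 1 to 4 and 31.1, 31.6, 31.0 and 28.1 in paused replicates 1 to 4.

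Pes1, in the 60S group, had the gene-end peak with the lowest adjusted p of the list. Its protein forms the PeBoW complex with those of Bop1 and Wdr12. The peak lay 257 bp before the gene, at chr11:3963618-3963818, overlapping the first part of the promoter window shown above. It had values of 178, 159, 169 and 170.5 in control replicates 1 to 4 and 227, 229, 209 and 245 in paused replicates 1 to 4. All paused libraries were above all controls, with 169 ± 7.89 in control and 228 ± 14.5 in paused libraries (mean ± SD, n = 4 each) and a log2 change of 0.42 (SE 0.11, n = 4 and 4, limma-trend adjusted p = 0.00797). The call held without any 1 library, and was lost after TMM rescaling (0.32, adjusted p = 0.0531), scaling to total reads (0.27), the loess correction (0.22, adjusted p = 0.191) and in DESeq2 (0.32). The partner Wdr12 changed by 0.10 (adjusted p = 0.596). Rrs1, needed early in 60S assembly, had the second strongest gene-end peak of the list. Its values were 332, 404, 427 and 392 in control replicates 1 to 4. In paused replicates 1 to 4 they were 427, 407, 506 and 472. The change was 0.22 (SE 0.10, n = 4 and 4, limma-trend adjusted p = 0.15). Nop2 and Rrp1b, an rRNA methyltransferase and a nucleolar protein, changed by 0.09 and 0.16 with overlapping groups. Nip7 had a gene-end peak only beyond its far end, with 14.9, 21.5, 16.9 and 5.88 in control replicates 1 to 4 and 9.23, 7.89, 4.65 and 2.34 in paused replicates 1 to 4, or 2 to 43 reads per library. Its change of -1.17 (SE 0.43, n = 4 and 4, limma-trend adjusted p = 0.0603) did not pass. The call appeared without control replicate 4 (-1.53, adjusted p = 0.0181) and without paused replicate 1 (adjusted p = 0.0447), and edgeR called it with either scaling.

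Several genes without a start peak of their own had one close by that the rule gave to a neighbouring gene. The peak nearest to the start of Polr1c, 18 bp from it at chr17:46247963-46248163, was assigned to Yipf3. It had values of 216, 247, 247 and 228 in control replicates 1 to 4 and 268, 293, 270.0 and 264 in paused replicates 1 to 4, with a log2 change of 0.22 (SE 0.11, n = 4 and 4, limma-trend adjusted p = 0.158). A peak near Polr1d (Lnx2), Utp15 (Ankra2), Nop14 (Grk4), Nop16 (Higd2a), Bop1 (Hsf1) and Nip7 (Cog8) was likewise assigned to the gene in parentheses. These 6 peaks had changes between 0.14 and 0.23 and no call. For Bop1, which has no listed start site, the distance was taken from either end, so its peak may not be one at the start. Tsr1 had no such peak.

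Distal peaks of these genes were weak, few of them passed the test, and most changes lay below 0. Of the 192, 175 had a mean value of at least 10 and were tested. Of these 8 rose and 7 fell, which is 8.57%, against a background of 13.4% of all distal peaks (10.1% higher and 3.28% lower). At an unadjusted p under 0.05, 16 were higher and 26 lower (24.0%, against 27.4%). After TMM rescaling 3 were higher and 11 lower (8.0%, against 10.4%, with 53.4% of calls higher in the background). In all, 61 changes were above 0 and 114 below (34.9% above, against 57.3% of all distal peaks), with a median of -0.14 against 0.07. The groups did not overlap at 14.9% of the 175, against 16.9%. Peaks of the list were also weaker, with a median value of 25.0 against 31.7, and weak peaks had lower changes in the whole table. In each of 4 broad classes of peak strength the median of the list was below that of all distal peaks. It was -0.35 against -0.14 in the weakest class, -0.16 against 0.03, -0.003 against 0.11, and 0.09 against 0.19 in the strongest. The weakest class held 40.6% of the list and 27.1% of all distal peaks, and the part of peak strength in the lower changes was not tested. Among the 41 peaks that average 50 or more reads, the median of the list turned positive, 0.07, against 0.16 for all such distal peaks. After the loess correction it was -0.17, against -0.03.

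**Figure D2:**
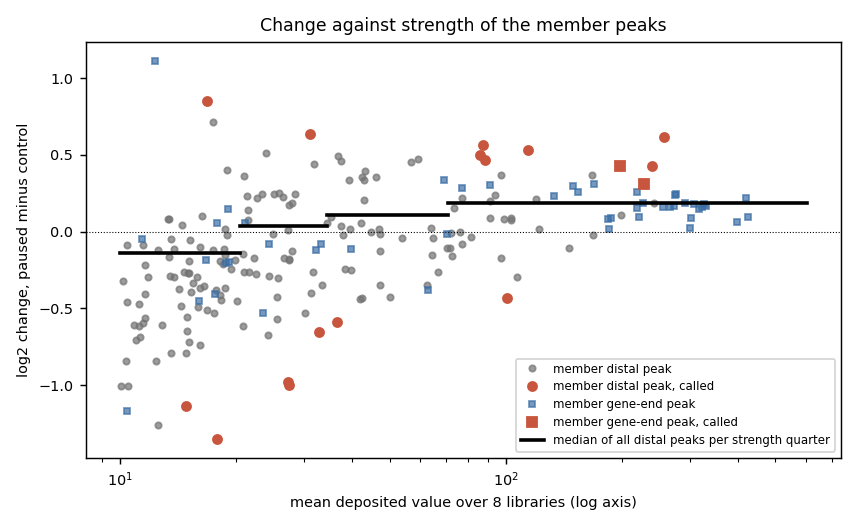
Log2 change, paused minus control, of each tested peak of the 40 genes against its mean deposited value (log axis), with gene-end peaks as squares, distal peaks as circles, called peaks in red, and bars for the median of all distal peaks in each strength class. Distal peaks below a value of 30 lie mostly under the bars, while the gene-end peaks above 100 sit near 0.2, a level that falls to about 0 after the loess correction.

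The distal peaks that fell were mostly weak. Of the 7, 3 lay between 1 and 5 kb past the far end of the gene and 2 inside the gene. The largest fall was 1655 bp beyond Polr1e, at chr4:45035834-45036034, inside the neighbouring gene Fbxo10. Its values were 23.2, 17.9, 39.0 and 25.0 in control replicates 1 to 4 and 11.5, 7.89, 7.76 and 10.5 in paused replicates 1 to 4. All paused libraries were below all controls, and the change was -1.35 (SE 0.30, n = 4 and 4, limma-trend adjusted p = 0.00191). The start peak of Polr1e, given above, had a change of the other sign that did not pass. Taf1b had a similar peak 2917 bp past its end, chr12:24561388-24561588, with 37.0, 25.1, 33.9 and 51.4 in control replicates 1 to 4 and 18.5, 15.8, 15.5 and 21.1 in paused replicates 1 to 4. The groups were apart and the change was -0.98 (SE 0.24, n = 4 and 4, limma-trend adjusted p = 0.00426). Inside Ddx21, 9739 bp from its start at chr10:62592459-62592659, the values were 19.0, 22.7, 25.4 and 16.2 in control replicates 1 to 4 and 10.4, 7.89, 7.76 and 9.37 in paused replicates 1 to 4. Here too the groups were apart, with 5 to 55 reads per library and a change of -1.14 (SE 0.31, n = 4 and 4, limma-trend adjusted p = 0.0105). The calls of these 3 peaks held without any 1 library and in all 9 other settings that tested them. These peaks were too weak to be tested under the higher limit on mean reads.

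Rrp1b had 2 such peaks. At chr17:32066076-32066276, 3311 bp past its end, the values were 31.8, 26.3, 47.4 and 39.7 in control replicates 1 to 4 and 9.23, 15.8, 27.9 and 21.1 in paused replicates 1 to 4. Paused replicate 3 reached the control range, and the change was -1.0 (SE 0.26, n = 4 and 4, limma-trend adjusted p = 0.00842), lost by a small margin without paused replicate 1 (adjusted p = 0.0506). The other, 28635 bp past the end, changed by -0.43 (SE 0.15, n = 4 and 4, limma-trend adjusted p = 0.0496). Paused replicate 1 was among the controls there, and the call was lost without control replicate 1 (adjusted p = 0.0872), 3 (0.0825) or 4 (0.143) or paused replicate 2 (0.19) or 4 (0.19). Polr1a had a fall inside the gene, -0.59 (SE 0.20, n = 4 and 4, limma-trend adjusted p = 0.0418), and one 10776 bp past its end, -0.65 (SE 0.21, n = 4 and 4, limma-trend adjusted p = 0.0326). Groups overlapped at both. The first call was kept only without control replicate 3 or paused replicate 1 and was otherwise lost (adjusted p 0.064 to 0.137). The second was kept only without control replicate 1 or paused replicate 3 (adjusted p 0.055 to 0.104 for the other 6), and paused replicate 3, at 35.7, was far above the other 3 paused libraries.

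The peaks that rose were mostly stronger. Inside Nop58, at chr1:59697817-59698017, 12956 bp from the nearer gene end, values were 197, 172, 208 and 232 in control replicates 1 to 4 and 278, 282, 323 and 362 in paused replicates 1 to 4. Every paused library was above every control, and the change of 0.62 (SE 0.11, n = 4 and 4, limma-trend adjusted p = 0.000279) held without any 1 library and in every other setting. It was the strongest distal peak of the box C/D group. A second peak, 17203 bp past the gene, changed by 0.47 (SE 0.15, n = 4 and 4, limma-trend adjusted p = 0.0261), a call lost without control replicate 2 (adjusted p = 0.056) or 3 (0.092) or paused replicate 2 (0.124) or 4 (0.0613) and after TMM rescaling.

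Rrn3 had 2 rising peaks inside the gene. The one 5370 bp from its start, chr16:13785969-13786169, had 81.9, 84.8, 105 and 101 in control replicates 1 to 4 and 143, 117, 141 and 138 in paused replicates 1 to 4. The groups were apart and the change was 0.53 (SE 0.13, n = 4 and 4, limma-trend adjusted p = 0.00513), kept without any 1 library and after TMM rescaling, and lost after scaling to total reads (0.37, adjusted p = 0.053), the loess correction and in DESeq2. The one 10059 bp from its end had 74.0, 82.4, 69.4 and 58.8 in control replicates 1 to 4 and 91.1, 103, 96.2 and 112 in paused replicates 1 to 4 and a change of 0.50 (SE 0.14, n = 4 and 4, limma-trend adjusted p = 0.0146). Its groups were apart too, and its call was lost without control replicate 4 (adjusted p = 0.063) or paused replicate 4 (0.0657) and after TMM rescaling (0.39, adjusted p = 0.067).

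Outside Bysl, 27451 bp past its end and inside Ccnd3, the gene of cyclin D3, the peak chr17:47571780-47571980 had 194, 198, 213 and 212 in control replicates 1 to 4 and 236, 290.2, 272 and 307 in paused replicates 1 to 4. The groups were apart, and the change of 0.43 (SE 0.11, n = 4 and 4, limma-trend adjusted p = 0.00712) held without any 1 library and was lost after scaling to total reads (0.27, adjusted p = 0.0785), the loess correction and in DESeq2. Upstream of Ubtf, 6055 bp from the gene, a peak changed by 0.56 (SE 0.16, n = 4 and 4, limma-trend adjusted p = 0.0155). Paused replicate 3 lay among the controls there, and the call was lost without control replicate 3 (adjusted p = 0.0676) or paused replicate 2 (0.101) or 4 (0.0527), and after TMM rescaling (0.0649), scaling to total reads (0.105), the loess correction (0.141) and in DESeq2 (0.116). Inside Utp4 and Polr1b, weak peaks changed by 0.64 (SE 0.22, n = 4 and 4, limma-trend adjusted p = 0.0497) and 0.85 (SE 0.30, n = 4 and 4, limma-trend adjusted p = 0.0487). The first call was kept only without control replicate 3 or paused replicate 3 (adjusted p 0.0532 to 0.203 otherwise) and the second only without control replicate 1 (adjusted p up to 0.157 otherwise), and in 9 other settings they lost it in 7 and 6, TMM rescaling and DESeq2 among them for both.

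**Figure D3:**
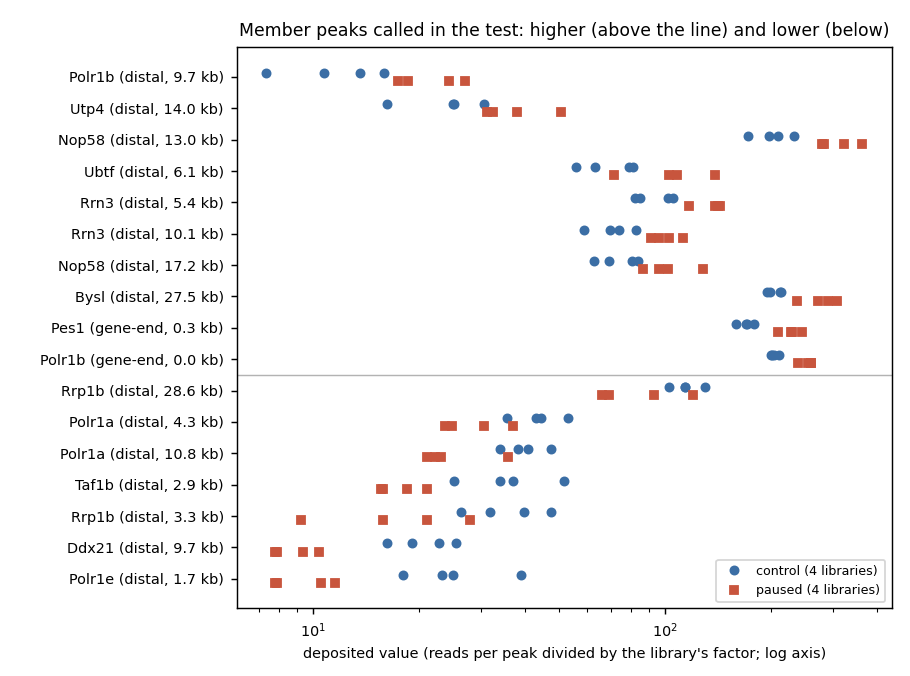
Deposited values (log axis) in each control (circle) and paused (square) library for the 17 peaks of the list called in the test, labelled by gene, kind and distance from the nearer gene end. The 7 falling peaks lie mostly below 50 and 4 of them have overlapping groups, while the rising peaks reach 362 at Nop58.

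Of the 17 called peaks, 7 kept their call without each library in turn. Of these, 4 also kept it in every other setting that tested them: those of Polr1e, Taf1b, Ddx21 and the inner peak of Nop58. The inner peak of Nop58 was tested in 10 such settings. Those of Polr1e, Taf1b and Ddx21 were tested in 9, being too weak for the higher limit on mean reads. By the FDR in the authors' deposited table, 2 gene-end peaks of the list were higher and 1 lower at an FDR under 0.05 (background 11.0% of gene-end peaks), and 6 distal peaks were higher and 6 lower (background 10.4%). The gene-end peaks there were those of Polr1b, Pes1 and, lower, Nip7. The strongest distal peaks of the other roles were not called. They were inside Ubtf (0.19), Bop1 (0.11), Ncl (0.37), Nop14 (0.37) and Polr1a (0.45), and the adjusted p ranged from 0.0514 for Nop14 to 0.605 for Bop1. Those of Bop1 and Ubtf turned negative after the loess correction (-0.10 and -0.02).

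The changes were also grouped by place along the gene. This grouping used the 199 tested peaks of genes with a listed strand and was drawn up after the values were seen. Of the 28 peaks within 1 kb of the start, 27 had changes above 0 with a median of 0.17, against 0.19 for all genes, but the median was 0.06 after TMM rescaling (21 above 0), 0.02 after scaling to total reads and -0.04 after the loess correction (10 above 0). Of these, 2 were called (7.14%, against a background of 11.8%, of which 0.658% lower). The 25 that overlapped a promoter window lay between 0.02 and 0.42 with a SD of 0.095. The exception below 0 was Ubtf, -0.19, whose start-side peak is weak and whose listed start sites lie inside the gene. Within 1 kb of the far end the median of 17 peaks was -0.11 (background 11.2% called and 3.09% lower). It was 0.02 for all genes and -0.17 for the other genes of the pathway described below. Median values of these peaks were 19.2, 30.7 and 17.1. Inside the gene the median change of 88 peaks was -0.12, against 0.06 for all genes and -0.001 for the other pathway genes. In the stretch from 1 to 5 kb past the far end the 22 peaks of 17 genes had a median of -0.30. It was 0.01 for all genes and 0.003 for the other pathway genes. Their median values were 26.9, 31.6 and 39.7, and weak peaks had lower changes in the whole table. Of these 22, 3 fell (13.6%, against a background of 3.79% lower), those of Polr1e, Taf1b and Rrp1b. Among the other genes of the pathway 4 of 46 peaks fell there (8.7%). The downstream median stayed negative under each scaling run, from -0.30 to -0.45. Of those that average 50 or more reads, only 3 downstream peaks were left, with a median of -0.03, and the 15 inside the gene had a median of 0.21.

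**Figure D4:**
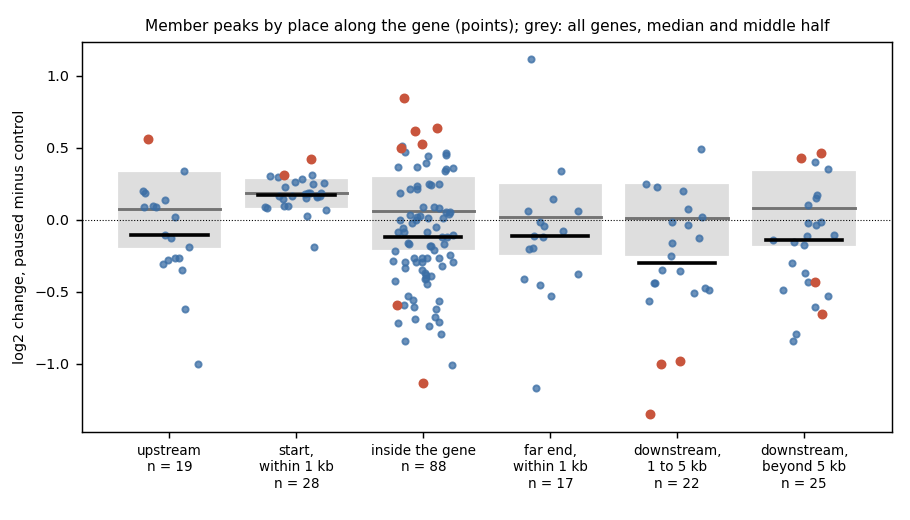
Log2 change, paused minus control, of the 199 tested peaks of stranded genes by place along the gene (points, called peaks red, black bar the median), with the median and interquartile range of all genes in grey. Start peaks cluster at 0.17, close to the grey line and near 0 after other scalings, and the 22 peaks from 1 to 5 kb past the far end have the lowest median, -0.30.

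Gene by gene, 1 gene passed the test on the summed gene-end values and 4 on the summed distal values. On the gene-end sum 1 of 35 genes was called, Pes1 (2.86%, against a background of 8.66%, 8.12% higher and 0.538% lower), with a change of 0.42 (SE 0.11, n = 4 and 4, limma-trend adjusted p = 0.0161) that was lost without paused replicate 4 (adjusted p = 0.0782) and after TMM rescaling. The median over the 35 was 0.16, against 0.18 for all genes. On the distal sum 35 genes were tested, 3 rose and 1 fell (11.4%, against a background of 28.2%, 24.8% higher and 3.4% lower). The median was -0.07, against 0.11, and 11 of 35 were above 0 (31.4%), against 70.0% of all genes. After TMM rescaling 1 was higher and 8 lower (25.7%, against 17.3% of all genes, 9.64% higher and 7.65% lower), and after scaling to total reads 1 was higher and 11 lower (34.3%, against 17.6%, 6.24% higher and 11.3% lower).

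Rrp1b fell in the sum of its 10 distal peaks, with values of 366, 359.5, 357 and 364 in control replicates 1 to 4 and 298, 243, 284 and 238 in paused replicates 1 to 4. The controls lay within a few units of each other and all 4 paused libraries were below them, a change of -0.45 (SE 0.083, n = 4 and 4, limma-trend adjusted p = 0.000105). Nop58 rose in the sum of its 9 distal peaks, with 449.7, 419, 471 and 494 in control replicates 1 to 4 and 519, 591, 597 and 661 in paused replicates 1 to 4. No paused library was as low as a control, and the change was 0.37 (SE 0.073, n = 4 and 4, limma-trend adjusted p = 0.000258). Both calls held without any 1 library and in every other setting, where the change ran from -0.61 to -0.44 for Rrp1b and from 0.21 to 0.38 for Nop58. Not all distal peaks of Nop58 rose. In the box C/D group 10 distal peaks were tested, 9 of Nop58 and 1 of Rrp9, and 5 changes were above 0 and 5 below. The inner peak of Nop58 described above is part of its sum. Rrn3 had distal sums of 341, 370.2, 340.3 and 323 in control replicates 1 to 4 and 419.9, 369, 420.5 and 458 in paused replicates 1 to 4. Paused replicate 2 lay within the control range, and the change of 0.28 (SE 0.077, n = 4 and 4, limma-trend adjusted p = 0.00717) held without any 1 library and was lost after TMM rescaling (0.17, adjusted p = 0.124) and the other scalings. Ubtf had 685, 786, 699 and 645 in control replicates 1 to 4 and 796, 822, 723 and 841 in paused replicates 1 to 4. Control replicate 2 lay among the paused libraries, and the change of 0.18 (SE 0.064, n = 4 and 4, limma-trend adjusted p = 0.0348) was kept only without control replicate 2 or paused replicate 3 (adjusted p 0.0564 to 0.13 without each of the other 6) and was 0.07 after TMM rescaling. As the listed start sites of Ubtf lie inside the gene, its distal sum can hold peaks near a start site.

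**Figure D5:**
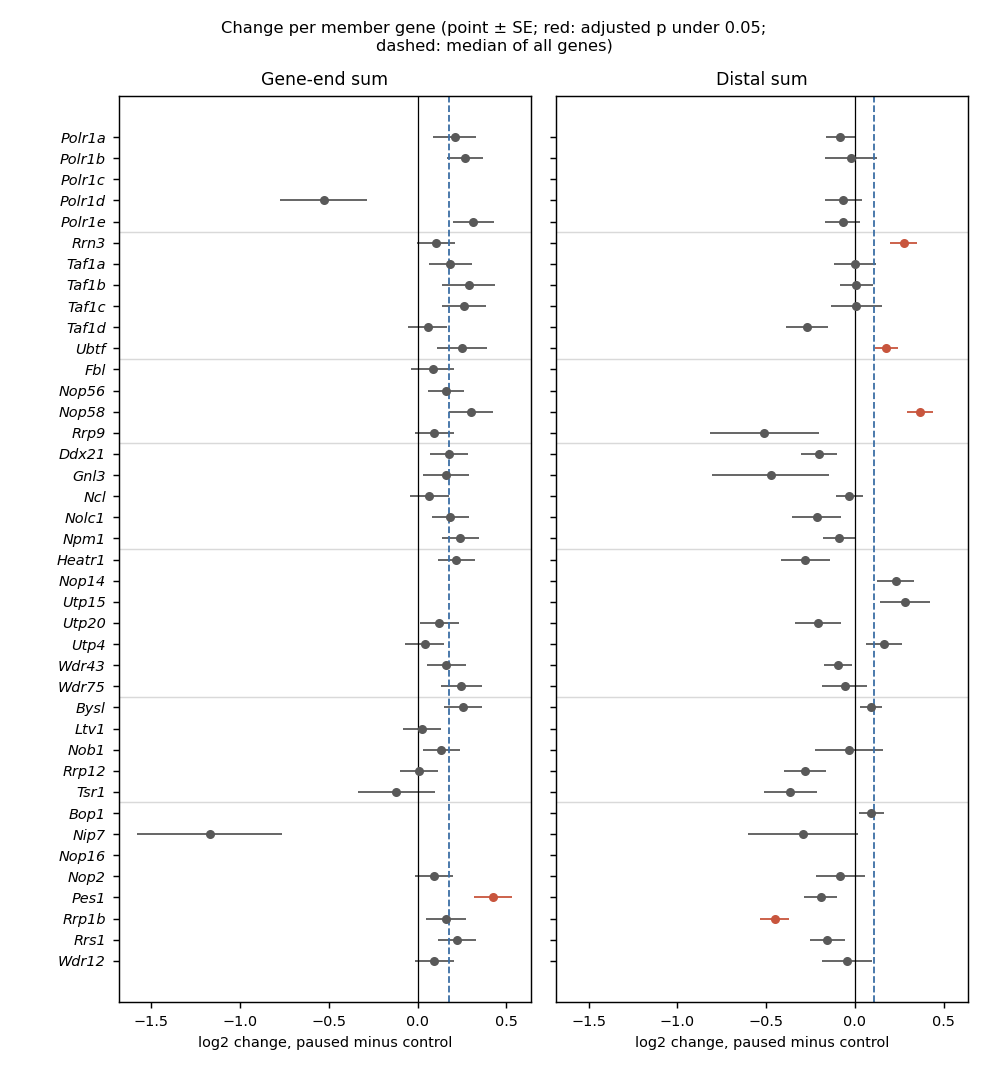
Log2 change, paused minus control (point) with its SE (bar), of the summed gene-end values (left) and distal values (right) of each gene, called genes in red and the median of all genes dashed. Most gene-end changes sit near the dashed line at 0.18, which is 0.07 after TMM rescaling, and most distal changes lie left of the dashed line at 0.11.

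In the difference of the 2 changes within a gene, the scaling of whole libraries nearly cancels out. It was below 0, that is lower at the distal peaks, in 27 of the 32 genes with both values, with a median of -0.28 against -0.08 for all genes. After the loess correction 27 of 32 were still below 0, with a median of -0.14 against -0.01. In 2 genes the difference itself passed (6.25%, against a background of 4.11%, 1.21% higher and 2.9% lower). They were Pes1, with -0.62 (SE 0.13, n = 4 and 4, limma-trend adjusted p = 0.0134), and Rrp1b, with -0.61 (SE 0.13, n = 4 and 4, limma-trend adjusted p = 0.0108). The call of Pes1 held without any 1 library and that of Rrp1b was lost without control replicate 1 (adjusted p = 0.0503). In Pes1 the gene-end value rose while the distal sum, 268, 281, 301 and 282 in control replicates 1 to 4 and 231, 265, 209 and 293 in paused replicates 1 to 4, changed by -0.19 (SE 0.093, n = 4 and 4, limma-trend adjusted p = 0.117). In Rrp1b the gene-end peak had 212, 288, 247 and 260.1 in control replicates 1 to 4 and 295, 263, 321 and 245 in paused replicates 1 to 4, with overlapping groups. At an unadjusted p under 0.05, 1 gene was higher and 11 were lower (37.5%, against 21.4% of all genes).

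The rest of the pathway was read from 105 further genes, of which 102 were found, including Polr2 subunits shared between polymerases, processome proteins, assembly factors and the TATA-binding protein Tbp, a part of SL1. Of 88 with a gene-end sum, 6 rose and 0 fell by limma-trend (6.82%, against 8.66%), with a median of 0.16. At an unadjusted p under 0.05, 27 were higher and 1 lower (31.8%, against 32.4% of all genes). By edgeR with the deposited factors 10 were higher (11.4%, against 10.2%), and 0 were called by DESeq2 or by edgeR with TMM, against 0.575% and 1.47%. The largest rises were those of Tsr3 (0.51 (SE 0.11, n = 4 and 4, limma-trend adjusted p = 0.00613)), Wdr18 (0.40), Ddx31 (0.39) and Tbp (0.38). Tsr3, which modifies the small subunit RNA, had 160.1, 186, 146 and 175 in control replicates 1 to 4 and 224, 256, 251 and 218 in paused replicates 1 to 4, with the groups apart. All 6 calls were lost after TMM rescaling. Without paused replicate 3 or 4 only 1 gene was called (1.14%, against 2.97% and 1.99% of all genes). There were 3 without control replicate 1 or 3 (3.41%, against 3.92% and 3.72%) and 2 without control replicate 4 (2.27%, against 3.57%). The count was 14 without control replicate 2 (15.9%, against 18% of all genes) and 10 without paused replicate 1 (11.4%, against 8.83%).

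On the distal sum 8 of 86 rose and 5 fell (15.1%, against 28.2%), with a median of 0.03, and without paused replicate 4 the count was 7 (8.14%, against 21.4%). The largest rises were those of Rpf1 (0.41 (SE 0.094, n = 4 and 4, limma-trend adjusted p = 0.00122)), Riok1 (0.38), Ebna1bp2 (0.37) and Utp3 (0.27), factors of 60S or 40S assembly. The largest falls were those of Tbp (-0.49 (SE 0.17, n = 4 and 4, limma-trend adjusted p = 0.0242)), Nop53 (-0.35), Ddx18 (-0.32) and Gtpbp4 (-0.24). Tbp had 66.4, 68.1, 59.3 and 80.8 in control replicates 1 to 4 and 54.2, 36.3, 46.5 and 58.6 in paused replicates 1 to 4, and its control and paused libraries were apart. Its fall was lost without control replicate 4 (adjusted p = 0.0881) or paused replicate 2 (0.108), and with a gene-end window of 500 bp its value was 0.06. The calls of Rpf1, Riok1 and Nop53 held without any 1 library and in every other setting, and those of Utp3 and Ddx18 were lost without 6 and 4 of the 8 libraries. In this list 2 genes passed on the difference of the changes, Tbp (-0.88) and Ddx18 (-0.57), both lower at the distal peaks (2.6%, against 4.11%), and the median was -0.13.

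Small nucleolar RNA genes lie inside the introns of several of these genes in mammals. The annotation placed 24 of them within 7 genes of the list, 6 in Taf1d, 5 in Nop56, 4 in Nop58, 3 each in Gnl3 and Wdr43, 2 in Ncl and 1 in Tsr1. A peak centre lay within 500 bp of 2 of the 24, 1 in Ncl and 1 in Tsr1.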

How the data were processed

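ATAC-seq of 4 control and 4 paused libraries of E14 cells was grouped, and numbered, by the sample titles. Per the submitters' processing notes, FastQC, Trim Galore, Bowtie2 2.4.1, MACS3 3.0.3 and DiffBind 3.16.0 were used with mm10; parameters, read filters and handling of the Tn5 offset are not given in the sources used here. The table deposited by the authors holds a signal per library for 1 set of 134407 peaks, namely reads divided by 1 factor per library. This was worked out from the values, which were whole multiples of 1 step per library (100% of them, within 0.01). How the factors were made is not given in the sources used here. The log2 folds, p-values and FDR deposited by the authors were used only in sentences that say so. Per-library columns left out of use numbered 0.

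Peaks with a mean value of 10 or more were compared with limma-trend (limma 3.58.1, R 4.3.3) on log2(value + 1), with no covariate and Benjamini-Hochberg adjustment over all of them. A fold on that scale understates the change of weak peaks. The same test was applied to gene-end sums, distal sums and their log2 difference over all protein-coding genes that reach the same mean. Genes, start sites and promoters came from RefSeq tables of GRCm38.p6, in which 3 pathway symbols (Polr1f, Polr1g and Polr1h) had no match. The procedure was tested on simulated data.

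By rule, the text names the strongest gene-end peak of each gene, the genes called on a sum or on the difference, the 10 largest rises and falls among called peaks, the strongest gene-end and distal peak per role, the 4 largest changes per direction among other called pathway genes, and the peaks nearest to Pou5f1, Sox2 and Nanog. The 40 genes, the roles and the lists were chosen with earlier results of these data known. Alternatives were a pseudocount of 0.1, no filter or a mean of 50 or more reads, TMM rescaling, scaling to total reads in peaks, a loess correction on peak strength (span 0.3), edgeR 4.0.16 and DESeq2 1.42.0 on the recovered reads, a block on the replicate number, each library left out in turn, gene-end windows of 500 bp and 2 kb, a distance of 20 kb, and assignment to the nearest gene end only. Between 4434037 and 21161767 reads per library fell in peaks. A peak with 0 reads allows up to 3, a value of 1.04 in control replicate 1 and 5.08 in control replicate 3. This covers counting error only, because PCR copies are not separate molecules.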

Additional observations from a re-analysis of the deposited data

Results flagged for a closer look

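Of 120 groups of 4 libraries looked at, 4 had 1 library apart from the other 3 by Dixon's 95% limit, and chance gives about 1 in 20. At the Polr1a peak past the far end, chr6:71990111-71990311, paused replicate 3 had a value of 35.7 and the other paused libraries 21.1 to 23.1. At the far-end peak of Tsr1, paused replicate 4 had 28.1 and the others 31.0 to 31.6, a small gap within a narrow range. At the start peak of Wdr43, control replicate 2 had 408 and the other controls 278 to 289. Among the reads in peaks, control replicate 1 had 21161767 and the other controls 4434037 to 6262445.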

How the results depend on the processing

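Counts of calls moved with the scaling, the tool, the replicate block and single libraries. Of the gene-end peaks 2 were called, 1 after TMM rescaling (that one lower) and 0 in DESeq2, and of the distal peaks 15 (8 higher and 7 lower), against 5 in DESeq2 (1 and 4). The gene-end counts are 4.0%, 2.0% and 0% of the list, against 11.7%, 4.85% and 1.89% of all gene-end peaks. After scaling to total reads 2 gene-end peaks were called, both lower (4.0%, against 4.41%). After the loess correction 1 was higher and 1 lower (4.0%, against 3.72%), as in edgeR with TMM (4.0%, against 6.39%). The distal counts are 8.57% and 2.86%, against 13.4% and 4.61% of all distal peaks. The distal split was 3 and 11 after TMM rescaling (8.0%, against 10.4% of all distal peaks) and 1 and 14 after scaling to total reads (8.57%, against 10.4%). It was 2 and 9 after the loess correction (6.29%, against 8.82%) and 4 and 18 in edgeR with TMM (12.6%, against 13.1%). In edgeR with the deposited factors it was 10 and 10 (11.4%, against 15.9%). With a mean of 50 or more reads it was 10 and 1 (26.8%, against 24.3%, 22.0% higher and 2.33% lower). Of the genes, 1 was called on the gene-end sum, 0 after TMM rescaling, scaling to total reads, the loess correction, edgeR with TMM or DESeq2, and 2 in edgeR with the deposited factors (5.71%, against 10.2% of all genes). In the 5 settings with 0, between 0.575% and 1.47% of all genes were called. On the distal sum 4 were called (11.4%, against 28.2% of all genes), 9 after TMM rescaling (25.7%, against 17.3%) and 12 after scaling to total reads (34.3%, against 17.6%). There were 9 in edgeR with TMM (25.7%, against 19.1%) and 2 in DESeq2 (5.71%, against 10.3%). Among the other pathway genes the gene-end count of 6 became 0 after TMM rescaling, scaling to total reads, the loess correction, edgeR with TMM and DESeq2. It was 10 with a gene-end window of 2 kb (10.6%, against 10.9% of all genes) and 10 in edgeR with the deposited factors (11.4%, against 10.2%). Their distal count of 13 became 20 after scaling to total reads (23.3%, against 17.6%) and 8 in DESeq2 (9.3%, against 10.3%). The median of member gene-end peaks, 0.147, was 0.0409 after TMM rescaling, -0.0059 after scaling to total reads, -0.0459 after the loess correction, 0.0753 with a window of 2 kb, 0.0355 in edgeR with TMM and 0.0208 in DESeq2. That of the distal peaks, -0.142, was -0.246 after TMM rescaling, -0.292 after scaling to total reads, -0.263 in edgeR with TMM and -0.264 in DESeq2, and turned to 0.0743 with a mean of 50 or more reads. The count of 2 genes on the difference of both changes stayed between 2 and 3 in the 11 other settings run for it, in which edgeR and DESeq2 were not run.

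With 1 library left out, the gene-end calls ranged from 1 to 4 and the distal calls from 8 to 14. The genes called on the gene-end sum ranged from 0 to 2 and on the difference from 1 to 2. The pathway genes ranged from 1 to 14 on the gene-end and 7 to 17 on the distal sum. Of all genes, 1.99% to 18% were called on the gene-end sum with 1 library left out. The gene-end median ranged from 0.0873 to 0.159. Changes that crossed 0 ranged, for Fbl from -0.0172 to 0.19, Ltv1 from -0.0404 to 0.0734, Ncl from -0.0156 to 0.136, Rrp12 from -0.0197 to 0.0613 and Tsr1 from -0.253 to 0.0502.

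Small gene-end changes turned under other scalings. After TMM rescaling these were Fbl -0.0222, Ltv1 -0.0845, Ncl -0.0431, Nop2 -0.0167, Rrp12 -0.094, Rrp9 -0.0121, Utp4 -0.0236 and Wdr12 -0.0105. In DESeq2 they were Fbl -0.0298, Ltv1 -0.076, Ncl -0.0326, Nop2 -0.0038, Rrp12 -0.0846, Rrp9 -0.004, Utp4 -0.024 and Wdr12 -0.0176. In edgeR with TMM they were Fbl -0.0267, Ltv1 -0.0751, Ncl -0.0315, Nop2 -0.0031, Rrp12 -0.084, Rrp9 -0.0016, Utp4 -0.0234 and Wdr12 -0.0181. After scaling to total reads they were Bop1 (distal peak) -0.0459, Fbl -0.07, Ltv1 -0.132, Ncl -0.091, Nop2 -0.0646, Rrn3 -0.0089, Rrp12 -0.142, Rrp9 -0.0601, Utp20 -0.0025, Utp4 -0.0714 and Wdr12 -0.0583. After the loess correction they were Bop1 (distal peak) -0.0956, Ddx21 -0.0315, Fbl -0.119, Heatr1 -0.0196, Ltv1 -0.185, Ncl -0.144, Nob1 -0.0406, Nolc1 -0.0261, Nop2 -0.117, Nop56 -0.0471, Rrn3 -0.0613, Rrp12 -0.191, Rrp1b -0.0491, Rrp9 -0.113, Taf1a -0.0231, Taf1d -0.0447, Ubtf (distal peak) -0.0182, Utp20 -0.0529, Utp4 -0.121, Wdr12 -0.109 and Wdr43 -0.0437. With a window of 500 bp this held for Tbp (distal sum) 0.0578. The cause of these turns was not tested.

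Deviations of same-numbered libraries correlated at 0.079, 0.036, 0.133 and 0.039 across peaks. Control replicates 1, 3 and 4 correlated best with their own number and control replicate 2 with paused replicate 1 (0.070), a hint from the data and not from the design. Since only 1 pair was above 0.1 and no label ties the numbers to a shared culture or day, the libraries were not treated as paired. With the replicate number as a block, 5 gene-end peaks (4 higher and 1 lower), 20 distal peaks (12 and 8), 2 genes on the gene-end sum and 20 other pathway genes on the distal sum were called, against 2, 15, 1 and 13, and 18.9% of all gene-end peaks against 11.7%. The distal peaks called with the block were 11.4% of the list, against 16.2% of all distal peaks. The genes called on the gene-end sum with the block were 5.71% of the list, against 11.1% of all genes. The pathway genes called with it were 23.3%, against 33.6% of all genes. Depth limits the weak distal peaks most, since 1 read is worth up to 1.69.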
